A study of Mus musculus with 14 samples.

Results

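Fgf5, Otx2, Pou3f1, Zic2, Dnmt3a and Dnmt3b were examined as 6 genes of the formative pluripotent state, of 52459 genes in the count tables. They were chosen by name because this class of genes was higher in METTL14 R255K cells than in WT cells before transcription was blocked, so their difference at 0 h is given as a description and supports nothing. The cells were E14Tg2a mESCs, a mouse embryonic stem cell line grown with serum and LIF, in a WT form and in a CRISPR-Cas9 knock-in form in which a lysine replaces an arginine of METTL14 (R255K). METTL14 is the RNA-binding partner of METTL3 in the complex that writes N6-methyladenosine (m6A) on mRNA, and the knock-in line was isolated from single colonies. In the RNA lifetime experiment both lines received 5 µg/ml actinomycin D, which blocks transcription, for 0, 4 or 8 h, with 1 polyA library per genotype and time (6 libraries). In the MeRIP-seq experiment, in which RNA fragments were pulled down with an antibody against m6A, untreated cells of each genotype gave 2 IP and 2 input libraries and 1 peak list.

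Formative pluripotency lies between the naive state of the early epiblast, in which cells are held by factors such as Klf4, Esrrb and Tfcp2l1, and the primed state that precedes germ layer formation. On leaving the naive state, cells switch on the ligand gene Fgf5 and the transcription factor genes Otx2, Pou3f1 (OCT6) and Zic2, and raise the de novo DNA methyltransferases DNMT3A and DNMT3B, which methylate the genome anew. m6A on mRNA is read by proteins that shorten the life of the transcript, and m6A on naive pluripotency transcripts is known to help cells leave the naive state.

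The 6 genes sit on 5 chromosomes, namely 5 (Fgf5), 14 (Otx2 and Zic2), 4 (Pou3f1), 12 (Dnmt3a) and 2 (Dnmt3b). In the GENCODE annotation of mm10, Pou3f1 is a single exon of 3849 bp, Fgf5 and Zic2 have 3 exons each in the transcript used, and Otx2 has 6. The transcripts of Dnmt3a and Dnmt3b have 23 and 24 exons. The exons of the 6 genes held between 2.00 (Fgf5) and 5.59 (Otx2) GGAC per kb, the core of the main m6A motif, against a median of 3.86 over the 11869 genes that were expressed at 0 h.

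The sequence under the m6A peak is shown for the 5 genes that had one, because these are the stretches whose enrichment was compared between the genotypes. Capitals mark GGAC on the transcribed strand, read from the mm10 genome. The Pou3f1 window reaches 50 bases to each side, centred on the WT summit in the coding sequence, chr4:124658290-124658390 on the plus strand. The Zic2 window spans both summits with 50 bases to each side, in the coding sequence of exon 1 at chr14:122476022-122476225 on the plus strand. For Otx2 and Dnmt3a, whose summits lay in the 3′UTR, only 29 bases around the nearest GGAC are shown, at chr14:48658283-48658311 on the minus strand and chr12:3907831-3907859 on the plus strand.
Pou3f1: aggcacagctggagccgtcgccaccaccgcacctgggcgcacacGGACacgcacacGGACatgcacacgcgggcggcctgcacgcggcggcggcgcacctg
Zic2: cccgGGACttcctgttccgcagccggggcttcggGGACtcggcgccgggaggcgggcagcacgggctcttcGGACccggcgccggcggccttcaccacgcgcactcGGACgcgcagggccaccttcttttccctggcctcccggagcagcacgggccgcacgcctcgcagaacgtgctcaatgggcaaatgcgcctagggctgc
Otx2: aatcttaggaatGGACaatgtcccaggct
Dnmt3a: ccaagaacgagaGGACggagaaaagttca

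The window around the WT summit of Fgf5, 50 bases to each side in the coding part of its last exon at chr5:98275436-98275536 on the plus strand, held no GGAC. Capitals mark the AAAC and the AGAC it holds.
Fgf5: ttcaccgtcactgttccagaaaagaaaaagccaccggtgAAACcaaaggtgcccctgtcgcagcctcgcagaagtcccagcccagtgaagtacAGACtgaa

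GGAC occurred on the transcribed strand in 61.5% of 13095 such windows of exonic WT peaks and in 65.8% of 8340 windows of R255K peaks, so 4 of the 5 genes had the commoner kind of window. A window with AGAC or AAAC and no GGAC, as in Fgf5, made up 27.9% of the WT and 21.7% of the R255K windows. In Pou3f1 a GGAC placed its A 4 bases upstream of the WT summit, and a second GGAC followed closely after the first. In Zic2 the R255K window held 3 GGAC and the WT window 1, and the 2 windows do not overlap. In Otx2 the same GGAC lay between both summits, with its A 30 bases upstream of the WT and 49 bases downstream of the R255K summit. In Dnmt3a the A lay 20 bases downstream of the WT summit. A match of these letters is a description of the window and not a mapped m6A site.

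Levels were computed as FPKM, counts scaled to exon length and to the summed counts of the library, and summed counts were between 13812160 and 18813640 per library. As each genotype and time was 1 library, the spread between replicates is not known and no p-values are given, and the 95% intervals cover counting error only. The log2 ratios below are of FPKM plus a pseudocount of 1, which understates the ratio of weakly expressed genes, and a gene passed the filter when its FPKM averaged at least 1 over the 2 libraries compared. Bulk levels cannot tell apart fewer cells that express a gene and less RNA per cell. Under actinomycin D a level is relative to the other transcripts left in that library. Mettl14 itself, where the knock-in changes a codon, had an FPKM of 5.27, 3.38 and 2.26 in WT and 2.58, 2.03 and 1.497 in R255K cells at 0, 4 and 8 h. The stem cell genes Pou5f1, Sox2, Nanog, Sall4 and Zfp42 were expressed in both genotypes, with Pou5f1 at 433 in WT and 385 in R255K cells at 0 h.

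Fgf5, which encodes a secreted fibroblast growth factor, had the lowest level of the 6 genes in each library but that of R255K cells at 4 h, where Otx2 was slightly lower. In WT cells it had 18 counts at 0 h and 0 at 4 and 8 h, an FPKM of 0.41 at 0 h. In R255K cells it had 36, 43 and 37 counts, an FPKM of 0.92, 0.92 and 0.79. All 3 R255K libraries were thus above all 3 WT libraries, and the level in R255K cells was close to the same at the 3 times while the WT counts were 0 after the block. At 0 h the R255K level was 2.23 times the WT level (1.23 to 4.17). Against the 3 counts that a count of 0 allows, the R255K level was 11.5 times as high at 4 h and 9.05 times at 8 h, and the lower limits of the exact intervals were 8.99 and 7.003. Fgf5 did not pass the filter at any time.

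The other 3 genes that respond early in the formative state encode transcription factors. Otx2, a homeobox factor that redirects OCT4 to new enhancers, had an FPKM of 1.60, 0.08 and 0.04 in WT and 8.19, 0.87 and 0.91 in R255K cells at 0, 4 and 8 h. The WT values at 4 and 8 h rest on 4 and 2 counts, against 55 and 58 in R255K cells. Otx2 was 5.10 times as high in R255K cells at 0 h (4.08 to 6.44), 11.1 times at 4 h (4.09 to 42.1) and 21.3 times at 8 h (5.63 to 180), and it passed the filter at 0 h only.

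Pou3f1 encodes a POU domain factor of the epiblast and of neural progenitors. Its FPKM was 5.56, 0.33 and 0.04 in WT and 22.4, 3.81 and 2.57 in R255K cells, from 373, 19 and 2 counts and from 1350, 273 and 186 counts. The R255K level was 4.03 times the WT level at 0 h (3.59 to 4.53), 11.6 times at 4 h (7.27 to 19.5) and 68.3 times at 8 h (18.6 to 568), where the WT count was 2. On the log2 scale with the pseudocount of 1 these ratios were 1.84, 1.86 and 1.78, and with a pseudocount of 0.1 they were 1.99, 3.19 and 4.28, so whether the difference widened over time depends on the scale. The intervals of the linear ratio at 0 and 4 h do not overlap. Pou3f1 at 8 h, with 186 counts in R255K cells, was higher than its WT level at 4 h and lower than its WT level at 0 h.

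Zic2, a zinc finger factor that binds enhancers in the formative state, had an FPKM of 9.30, 1.00 and 0.65 in WT and 23.3, 3.44 and 2.10 in R255K cells. Its ratio was 2.503 at 0 h (2.24 to 2.797), 3.45 at 4 h (2.46 to 4.92) and 3.22 at 8 h (2.09 to 5.14). The WT peak of Zic2 also reached the neighbouring gene 2610035F20Rik, whose FPKM at 0 h was 1.098 in WT and 2.83 in R255K cells.

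The de novo DNA methyltransferases differed from each other. Dnmt3a had an FPKM of 16.9, 16.8 and 16.1 in WT and 16.1, 14.8 and 15.9 in R255K cells. Its ratio was 0.949 at 0 h (0.911 to 0.990), 0.884 at 4 h (0.847 to 0.922) and 0.984 at 8 h (0.943 to 1.03), so it was the one gene that was not higher in R255K cells at any time. Dnmt3b had an FPKM of 43.2, 59.4 and 64.6 in WT and 102, 113 and 125 in R255K cells. Every R255K library was above every WT library, and the ratio was 2.35 at 0 h (2.26 to 2.44), 1.90 at 4 h (1.84 to 1.97) and 1.94 at 8 h (1.87 to 2.01). At each time Dnmt3b had the highest FPKM of the 6 genes in both genotypes.

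**Figure D1:**
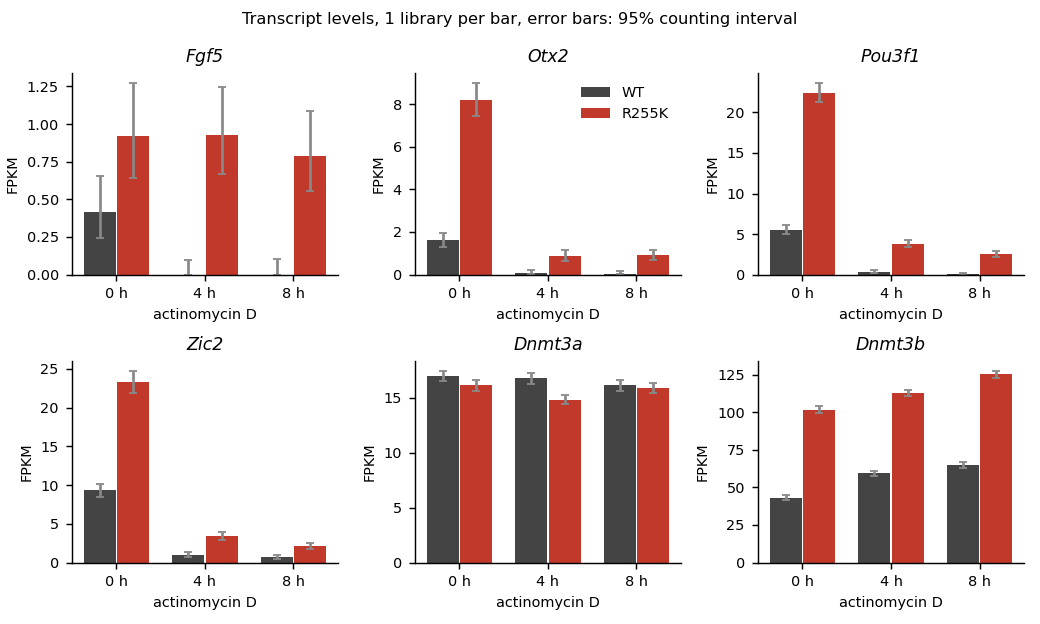
FPKM of the 6 genes on a linear axis from 0, by hours of actinomycin D, with WT bars in grey and R255K bars in red, 1 library per bar and 95% counting intervals. Otx2, Pou3f1 and Zic2 were lower at 4 and 8 h than at 0 h in both genotypes and higher in R255K cells at each time, Dnmt3a differed little between genotypes, and Dnmt3b stood between 102 and 125 in R255K against 43.2 to 64.6 in WT cells.

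Among all genes that passed the filter at 0 h, 764 of 11869 (6.44%) were over 2-fold higher in R255K cells on the log2 scale with the pseudocount, and the median log2 ratio was 0.05. Otx2 (1.82), Pou3f1 (1.84), Zic2 (1.24) and Dnmt3b (1.22) were over that limit, 4 of the 6 genes and of the 5 that passed. This contrast chose the genes, so nothing is read from the count. Dnmt3b and Zic2 lay just inside the limit of 2-fold, and Fgf5 (0.44, below the filter) and Dnmt3a (-0.07) outside it.

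The 4 and 8 h libraries were not used in choosing the genes, but they came from the same 2 lines and are not independent of the difference at 0 h. At 4 h the background was 1269 of 10923 genes (11.6%), with a median of 0.16. On the scale with the pseudocount of 1, Pou3f1 (1.86) and Zic2 (1.15) were over 2-fold. Dnmt3b (0.92), Fgf5 (0.94) and Otx2 (0.79) were not, the latter 2 below the filter. At 8 h the background was 2179 of 10162 genes (21.4%), with a median of 0.31, and Pou3f1 alone was over 2-fold on this scale. Zic2 (0.91), Dnmt3b (0.94), Otx2 (0.87) and Fgf5 (0.84) lay just under the limit, and Dnmt3a (-0.02) near 0. The pseudocount lowers the ratios of weakly expressed genes. Without it Otx2 was 11.1 times as high at 4 h and 21.3 times at 8 h, and Zic2 3.22 times at 8 h. For Fgf5 the lower limits were 8.99 and 7.003, while Dnmt3b stood at 1.90 and 1.94. Pou3f1 and Zic2 passed the filter at 4 and 8 h through their R255K level, which makes a high ratio more likely, so the counts of 2 and 1 out of 4 genes that passed are given without reading support from them.

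The whole distribution moved with the scaling. With edgeR's TMM factors the median of all genes was 0.01, -0.04 and -0.06 at 0, 4 and 8 h, and with DESeq2's size factors it was -0.05, -0.08 and -0.20. The log2 ratio of Dnmt3b at 8 h was then 0.52 and 0.35, and that of Pou3f1 1.74 and 1.72. Correction for GC content, which was 63.9% in the exons of Pou3f1 and 58.0% in those of Zic2 against a median of 49.9%, gave 1.47 for Pou3f1 and 0.94 for Zic2 at 0 h, so that 3 genes remained over 2-fold. In each of these settings and at each time the sign of the ratio was the same for all 6 genes, negative for Dnmt3a and positive for the others.

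**Figure D2:**
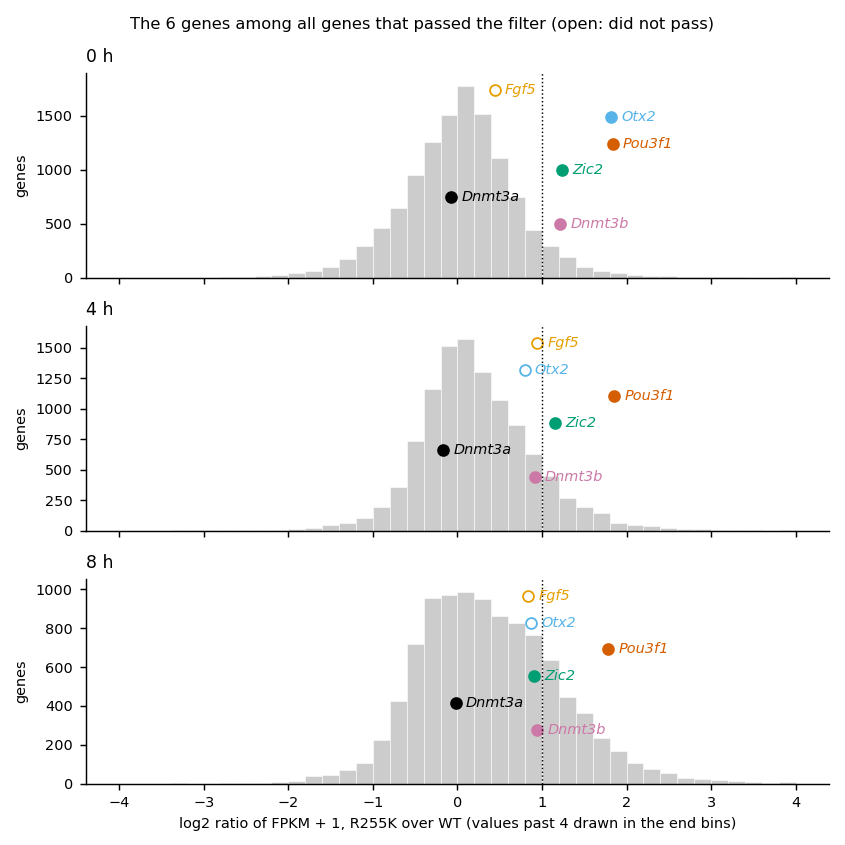
Distribution of the log2 ratio of FPKM + 1, R255K over WT, at 0, 4 and 8 h, as the number of genes per bin of 0.2, with the 6 genes as points at arbitrary heights, open where they did not pass the filter, and a dotted line at 2-fold. Pou3f1 stood at 1.84, 1.86 and 1.78 at the 3 times while the median of all genes went from 0.05 to 0.31.

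How fast the transcripts were lost after the block was compared next, as m6A is known to shorten transcript life. The rate was the mean of the rates from 0 to 4 h and from 0 to 8 h, and it shares the 0 h libraries with the contrast that chose the genes. Otx2, Pou3f1 and Zic2 were short-lived in both genotypes. Of the 0 h level of Pou3f1, 5.93% was left at 4 h and 0.677% at 8 h in WT cells, against 17.0% and 11.5% in the mutant line. With the 2 WT counts at 8 h taken as 3, the WT half-life was 1.08 h (0.946 to 1.27). The R255K half-life was 1.94 h (1.84 to 2.06), 1.79 times as long (1.54 to 2.09).

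Otx2 had a half-life of 1.20 h in WT (0.956 to 1.60) and of 1.66 h (1.51 to 1.84) in R255K cells, a ratio of 1.39 (1.06 to 1.82). Its WT value also takes the 2 counts at 8 h as 3. In R255K cells 10.6% of the Otx2 level was left at 4 h and 11.1% at 8 h, so nearly all of the loss fell in the first 4 h. Its R255K half-life thus averages 2 unlike rates, and the interval covers counting error only. The Otx2 ratio was 1.35 from the 4 h libraries alone and 1.47 from the 8 h libraries alone. Zic2 had half-lives of 1.56 h in WT (1.41 to 1.74) and of 1.78 h (1.68 to 1.90) in R255K cells, a ratio of 1.14 (1.01 to 1.29). The median half-lives of all genes that passed the filter at 0 h and had a positive rate in both genotypes were 3.48 h for WT and 8.08 h for R255K, so these 3 transcripts were shorter-lived than the median gene in both.

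Over these 5504 genes, 3787 (68.8%) had a half-life over 1.5-fold longer in R255K cells, with a median ratio of 1.98. Of the 6 genes 4 were in this set, and of the 3 whose rates lay above 0 by more than counting error in both genotypes Pou3f1 was over 1.5-fold, and the ratios of all 3 transcription factors were below the median of all genes. Dnmt3a stood at 95.02% of its 0 h level at 8 h in WT and at 98.5% in R255K cells, and as the interval of its WT rate included 0, its half-life ratio of 0.409 has an interval from 0.0837 to 2.003. Dnmt3b, relative to the rest of its library, stood at 150% of its 0 h level in WT and 123% in R255K cells at 8 h, so no half-life could be given. For Fgf5 the WT half-life with 3 counts in place of 0 was 2.29 h (1.44 to 5.67), and the R255K rate had an interval that included 0, with 85.5% of the 0 h level left at 8 h.

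From 4 to 8 h alone, 7101 of 10458 genes (67.9%) had a log2 change in R255K cells above that in WT cells, and the median difference was 0.19. These genes had at least 3 counts in each of the 4 libraries, which Pou3f1 lacked in WT at 8 h. Pou3f1 had a log2 change of -2.55 in WT and of -0.57 in R255K cells, a difference of 1.98 (0.20 to 3.75) that rests on 2 WT counts at 8 h, taken as 3. Dnmt3a differed by 0.16 (0.07 to 0.24), and Dnmt3b (0.03) and Zic2 (-0.10) by less than counting error. So 3 of the 4 genes that passed at both times were above WT. With TMM factors, DESeq2's size factors or the GC correction Pou3f1 was the only one.

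Each of the 5 WT m6A peaks on exons of these genes had an overlapping peak in R255K cells, and Dnmt3b had a peak in neither list. A WT peak was found on 57.4% of the 11869 genes that passed at 0 h, and an R255K peak on 43.6%. Of 13870 exonic WT peaks, 6639 (47.9%) had no R255K peak that overlapped by at least 1 bp, against 0 of the 5. The peaks of Pou3f1, Zic2, Otx2 and Dnmt3a had a WT -log10 q of 195, 88.1, 68.8 and 64.2. That of Fgf5 was 8.34, and the median of exonic WT peaks was 24.8. The transcripts of Fgf5, Otx2, Pou3f1 and Zic2 were also higher in R255K cells at 0 h. Each of the 5 genes thus had a WT -log10 q above the median, a transcript higher in R255K cells, or both, so nothing is read from 0 of 5. The lists hold no value per replicate, so no test is given for this or for the enrichments.

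Pou3f1 had the strongest peak. Its fold enrichment at the summit was 24.0 in WT, above 98.8% of exonic WT peaks, and 10.5 in R255K cells, a ratio of 0.438, and the -log10 q went from 195 to 158. The summits lay 3 bp apart in the coding sequence, 714 and 717 bases before the stop codon. Of the kept peaks at any WT enrichment, 8.84% had a lower ratio than that of Pou3f1. Peaks as strong as this one in WT cells were not compared apart.

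The other 4 peaks had ratios close to each other. Otx2 went from 14.6 to 9.58 (ratio 0.656), and its peak was 1251 bp wide in WT and 295 bp in the mutant in the 3′UTR, 441 and 362 bases past the stop codon at the summits. Zic2 went from 8.48 to 5.36 (0.632) and from 1871 to 951 bp, with the summits 103 bp apart in exon 1. Its WT peak started 632 bp before the gene and overlapped 2610035F20Rik, while the R255K peak started 5 bp before the gene. Part of the difference in width thus lay outside Zic2. The median distance between the summits of kept peaks was 22 bp, so in Zic2 and Otx2, where it was 79 bp, the summits lay further apart than in the median pair.

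Fgf5 went from 7.32 to 4.67 (0.637), 64 and 46 bases before the stop codon. The -log10 q of this peak was 8.34 in the WT list and 11.4 in the R255K list, the one gene where it was higher in R255K cells, beside a transcript level 2.23 times as high. Dnmt3a went from 6.14 to 4.02 (0.655), 80 and 65 bases past the stop codon. Among all 7231 kept exonic peaks, 5133 (71.0%) had a lower fold enrichment in R255K cells, and the median ratio was 0.792, with quartiles of 0.593 and 1.05. The 5 of 5 lower ratios of these genes are read against that share. The ratio of Pou3f1 lay below the lower quartile and the other 4 between it and the median.

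**Figure D3:**
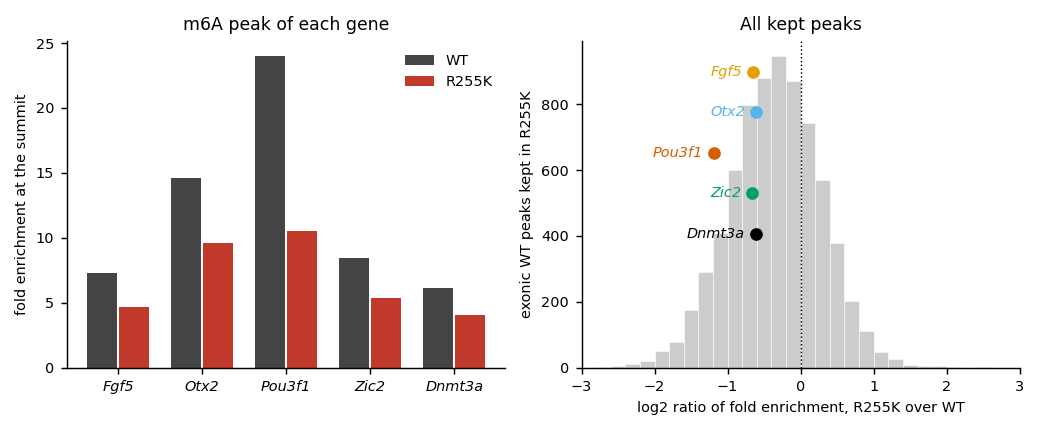
Left, MACS2 fold enrichment at the summit of the m6A peak of each gene in WT (grey) and R255K (red) cells, on a linear axis from 0. Right, the log2 ratio of fold enrichment over all kept exonic peaks, with the 5 genes as points at arbitrary heights. All 5 points lie below 0, and Pou3f1, with a ratio of 0.438, is furthest from it.

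**Figure D4:**
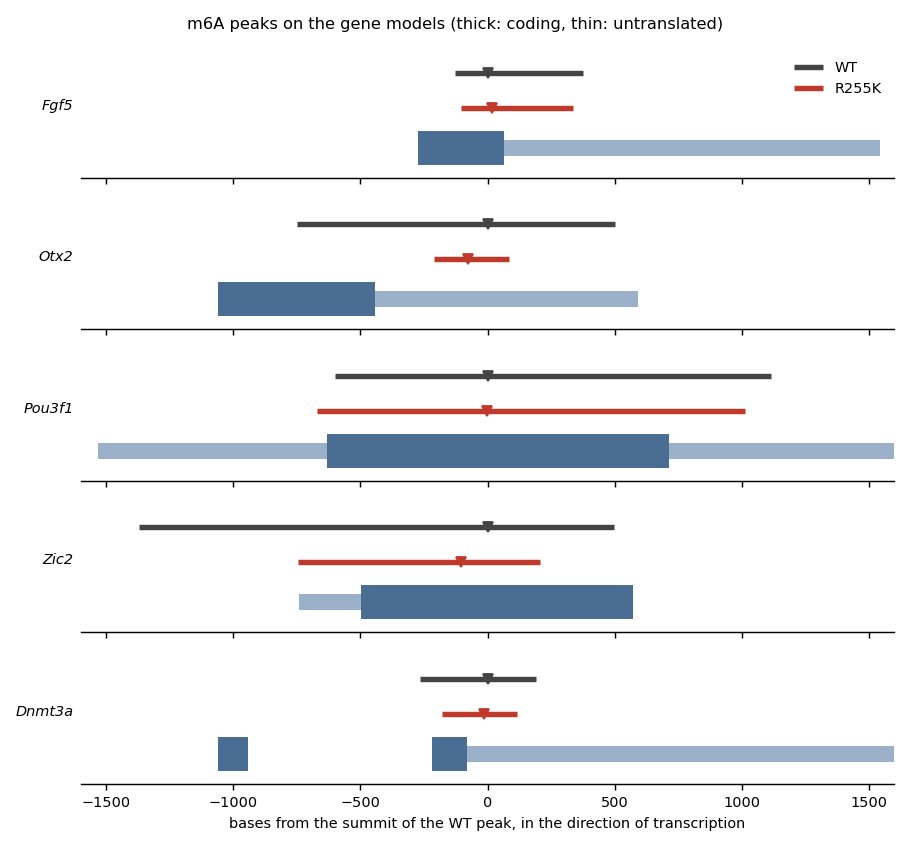
Extent (line) and summit (triangle) of the m6A peak in WT (grey) and R255K (red) cells over the gene model, in bases from the WT summit. The peaks of Otx2 and Zic2 were 295 and 951 bp wide in R255K cells against 1251 and 1871 bp in WT, while those of Pou3f1 (1719 and 1683 bp) and Fgf5 (505 and 442 bp) differed less. The WT peak of Zic2 started 632 bp before the gene, so part of its width lay outside Zic2.

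Peak and level ratios of the genes are set side by side, and a link between them was not tested. Pou3f1 had the lowest enrichment ratio and a high level ratio. Its half-life ratio was the highest of the 3 genes whose rates lay above 0 by more than counting error, but below the median of all genes. The half-life ratio of Fgf5 was 32.7, with an interval from 0.0102 to 104832. Otx2, Zic2, Fgf5 and Dnmt3a had enrichment ratios between 0.632 and 0.656 and level ratios at 0 h between 0.949 and 5.10. Dnmt3b had no peak and was 2.35 times as high. These are 6 genes of the same libraries, so no correlation is given.

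Other genes of the formative and primed states gave a mixed picture, from a list of 18. At 0 h 7 of the 18 were over 2-fold higher in R255K cells and 0 over 2-fold lower, against 6.44% and 5.92% of all genes. Their median log2 ratio was 0.43, against 0.05 over all genes. The highest were the tight junction gene Cldn6 (2.40), the growth factor gene Fgf15 (1.79) and the SOX factor gene Sox3 (1.505). Among the lowest were Lin28b (-0.45), which encodes an inhibitor of let-7 maturation, and the ETS factor gene Etv5 (-0.34). At 4 h and at 8 h 7 genes of the list were over 2-fold higher, of 16 and 12 that passed, where all genes gave 11.6% and 21.4%. Of these 7 genes, 2 at 0 h, 4 at 4 h and 3 at 8 h had a WT FPKM under 1 and passed through their R255K level, which makes a high ratio more likely, so nothing is read from these counts.

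The naive pluripotency genes went the other way at 0 h. Of 15, 7 were over 2-fold lower in R255K cells and 1 over 2-fold higher, against 5.92% and 6.44% of all genes. Their median was -0.99. The lowest were Klf5 (-2.38), Tbx3 (-1.96) and Tfcp2l1 (-1.77), all transcription factor genes of the naive network. The highest were Dppa3 (3.39), Klf2 (-0.03) and Fgf4 (-0.08), so that Dppa3, a maternal factor gene that shields DNA methylation in the early embryo, was the exception. At 8 h 2 of the 14 that passed were over 2-fold lower and 3 higher, against 2.85% and 21.4% of all genes. Their median was then -0.03, against 0.31 over all genes. Of the core genes, Sox2 stood at -0.33, Pou5f1 at -0.17 and Sall4 at 0.10 at 0 h, none over 2-fold.

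The partners of the methyltransferases in setting and removing DNA methylation were lower or close to WT at 0 h. Tet1 and Tet2, whose enzymes oxidise 5-methylcytosine, were at -1.91 and -2.40, and Tet3 at -0.53. Tet1 had an FPKM of 53.1, 22.5 and 6.45 in WT and 13.4, 25.9 and 21.4 in R255K cells, so that it was lower at 0 h and higher at 8 h in R255K cells. The maintenance genes Dnmt1 and Uhrf1 stood at -0.38 and -0.37 at 0 h. Dnmt3l, the catalytically inactive partner of DNMT3A and DNMT3B, stood at 0.09 at 0 h, -0.32 at 4 h and -0.51 at 8 h. Of the methyltransferase genes and their partners, Dnmt3b was thus the one over 2-fold higher at 0 h.

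Genes of FGF signalling, the pathway of Fgf5, were followed in a list of 13, of which 9 passed at 0 h. Fgf15 was over 2-fold higher and Spred1 (-1.30), which encodes an inhibitor of RAS signalling, over 2-fold lower. Over all genes these shares were 6.44% and 5.92%, so nothing is read from 1 gene in each direction. The feedback inhibitor genes Dusp6 (-0.98) and Spry2 (-0.90) were next lowest, and Etv4 (0.24) and Fgfr1 (0.22) next highest. Of 11 paralogs of the 6 genes, 4 passed, among them Fgf4 (-0.08), Dnmt3l (0.09) and Zic5 (0.24). None of the 4 was over 2-fold in either direction, and with the same shares over all genes nothing is read from this.

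**Figure D5:**
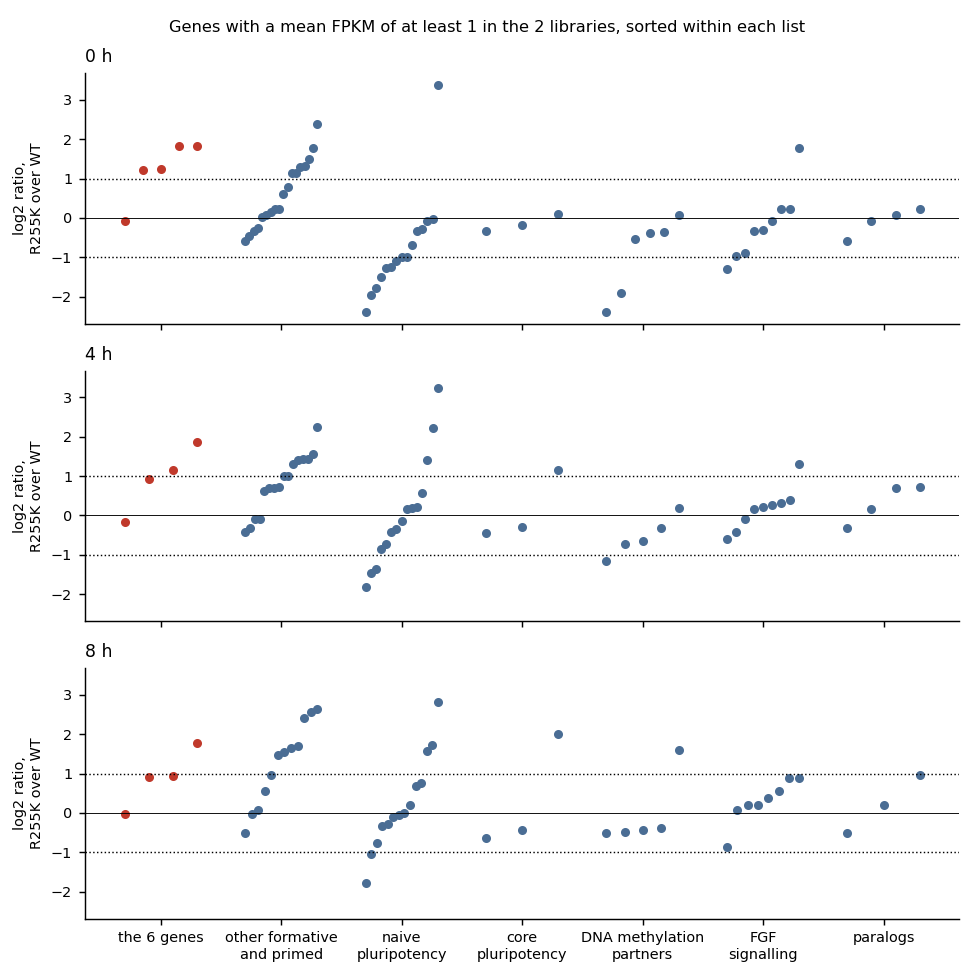
Log2 ratio of FPKM + 1, R255K over WT, for each gene of the lists that passed the filter at 0, 4 and 8 h, sorted within a list, with the 6 genes in red and dotted lines at 2-fold. At 0 h the naive genes had a median of -0.99 and the other formative and primed genes one of 0.43.

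Markers of some other cell types, but not of all, also stood apart at 0 h, and their part in the levels above was not tested. The 6 markers of 2-cell-like cells were all at 0 counts in WT, and 5 had counts in R255K cells, with a summed FPKM of 4.41. Over all 23848 genes with a count in either library, 55.6% were higher in R255K cells. All 5 mesoderm markers were higher (summed FPKM 1.39 in WT and 5.57 in R255K), with 0 of 5 past the filter. All 5 trophoblast markers were higher too (6.13 and 16.3), with 1 of 5 past the filter and Elf5 at 0 in WT. The trophoblast list shares Eomes and Hand1 with the mesoderm list, and most of its sum was Tfap2c (5.44 and 11.4). Of the 6 fibroblast markers 4 were higher (1.66 and 5.89), among them Dcn with 2 counts in each genotype, and Postn and Lum were at 0 in both. The endoderm markers summed to 10.4 in WT and 8.13 in R255K cells, 3 of 6 higher. The neuroectoderm markers, a tissue in which Otx2, Pou3f1 and Zic2 are also used, summed to 123 and 151, 3 of 5 higher, with Neurog2 at 0 in WT. Most of this sum was Tubb3 (106 and 142), and the other 4 summed to 16.5 in WT and 9.30 in R255K cells, with Sox1 at 13.4 and 1.76.

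No gene on either strand that overlaps the 6 had more than 3 counts in any library. These were the antisense or long noncoding genes Otx2os1, Gm2164 (Pou3f1), Dnmt3aos and Dnmt3bos. Gm49154, within Otx2, was not analysed here.

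Among 11659 other genes with at least 10 counts in each library, the 5 whose profile over the 6 libraries lay nearest to the mean profile of the 6 genes were Lfng, Pik3cd, Mafk, Zbtb7b and 5730559C18Rik. The measure was the Euclidean distance between log2(FPKM + 1) profiles, each centred on its own mean, and it was 0.20 for Lfng and 0.31 for 5730559C18Rik, against a median of 1.73. Pearson's r over the 6 libraries was between 0.987 and 0.995, as a description. Lfng, a glycosyltransferase gene of the Notch pathway, had an FPKM of 2.27, 0.93 and 0.78 in WT and 6.58, 2.49 and 2.04 in R255K cells. The 6 genes themselves lay further from their mean, between 0.92 (Otx2) and 1.91 (Pou3f1), and their r with it ran from 0.995 for Pou3f1 to 0.39 for Dnmt3b and -0.17 for Dnmt3a. Of the pairs, Pou3f1 and Zic2 had the highest r (0.97), and Dnmt3a and Dnmt3b the lowest (-0.79).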

How the data were processed

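Reads matching rRNA were removed by the authors with Bowtie2 2.2.6, and the rest were aligned to mm10 with HISAT2, with unique reads kept by Picard 2.16.0 and SAMtools 0.1.09. The deposited counts per gene were not normalized. The counting tool, its annotation and its strand setting are not given in the sources used here, nor is how libraries were combined before the authors called peaks with MACS2. The deposited fold enrichment is the ratio of IP to local background at the summit, and the deposited −log10 q is that of MACS2. The depth behind the peak lists is unknown.

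FPKM used the exon length in the tables and summed counts. Ratio intervals were exact conditional (Clopper-Pearson) intervals at 95%, and those of rates came from the delta method. For rates, counts of 0 to 2 after the block were replaced by 3. Windows of 50 bases to each side of a summit and summit positions were read with the GENCODE M21 annotation and the GRCm38 genome with pysam 0.24.0, and peaks were overlapped with bedtools 2.31.1. Python 3.11.15, edgeR 4.0.16 (TMM factors), DESeq2 1.42.0 (size factors) and a lowess with span 0.3 for GC content were used. No model was fitted, since each genotype and time was 1 library. The calculations were tested on simulated counts with counting error only. The simulated rates were taken with library sizes that undid a known loss of RNA. That loss is unknown in the real libraries, so the simulation does not test the scaling of the reported half-lives.

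The genes and lists were chosen with earlier results of these data known. All 6 genes, all partners in DNA methylation, genes overlapping the 6, Mettl14 and the 5 nearest profiles are named, and from each other list up to 3 genes with the highest and 3 with the lowest ratio at 0 h among those with a mean FPKM of at least 1 over 6 libraries, except 1 gene that is not reported here. Values of single marker genes, Pou5f1 as a check of cell identity and 2610035F20Rik were added after seeing the data.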

Additional observations from a re-analysis of the deposited data

Results flagged for a closer look

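Some values had opposite signs in the 2 genotypes, or at different times, and these differences were not tested, as each is 1 library.

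Fgf5 changed by -2.37 on the log2 scale from 0 to 4 h in WT cells, with 3 counts in place of 0. In R255K cells it changed by 0.0066, which is close to none. Otx2 changed by -0.30 (-2.46 to 1.86) from 4 to 8 h in WT cells (4 counts, then 2 taken as 3). In R255K cells it changed by 0.060 (-0.47 to 0.59). Dnmt3a changed by -0.057 (-0.121 to 0.007) from 4 to 8 h in WT and by 0.098 (0.040 to 0.156) in R255K cells. Both intervals of Otx2 include 0, so its directions lie within counting error. For Dnmt3a the WT interval includes 0 and the R255K interval does not, so only its WT direction lies within counting error. The sign of the difference between its 2 changes depended on the scaling.

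Tet1 went from lower in R255K cells at 0 h to higher at 8 h, with log2 ratios of -1.91, 0.19 and 1.59 at 0, 4 and 8 h. Tet3 stood at -0.53, 0.27 and 0.33, the last 2 below the filter on FPKM. Dnmt3l went the other way, at 0.085, -0.32 and -0.51. The counting intervals of the ratios lay on both sides of 1 over time for each of these 3 genes.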

How the results depend on the processing

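The number of the 6 genes over 2-fold higher in R255K cells at 0 h was 4 in 5 of the alternatives and 3 after GC correction. At 4 h it was 2, and 1 with TMM factors, with DESeq2's size factors and after GC correction, and 3 with a limit of 1.5-fold. At 8 h it was 1, 2 with a pseudocount of 0.1 and 3 with a limit of 1.5-fold. The gene with a half-life over 1.5-fold longer in R255K cells was 1, and 0 with a limit of 2-fold. The number with a larger 4 to 8 h change in R255K cells was 3, and 1 with TMM factors, DESeq2's size factors or GC correction. The difference for Dnmt3a, 0.16, reversed to -0.053, -0.18 and -0.069 under these. Of the WT peaks 0 were lost, and 1 (Otx2, 23.6% covered) where a peak counted as kept from 50% coverage on. Stricter limits on fold enrichment or q and a summit in an exon left 5 peaks. The cause of these shifts was not tested. No paired analysis was possible because there were no replicates to pair within a time, and a fit with the hour as a block, which would take the hours as replicates, was not run. No replicate could be left out. Low counts limit Fgf5 at all times and the WT values of Otx2 and Pou3f1 at 4 and 8 h.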
